A study of Mus musculus with 48 samples.

Results

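The RNA exosome degrades and trims RNA from its 3′ end in the nucleus and the cytoplasm, and its mRNA levels were followed here through 10 of its subunits in mouse embryonic stem cells (mESCs). The 10 genes were *Exosc1*, *Exosc2*, *Exosc3*, *Exosc4*, *Exosc5*, *Exosc7*, *Exosc8*, *Exosc9*, *Exosc10* and *Dis3*, taken by name from the 55335 genes of each expression table, with earlier results of these data known. In *Mtrex*-KO cells 5 of the 10 fell, led by the ring subunits *Exosc7* and *Exosc8*, whose levels dropped to under 50% of wild type (WT), in a comparison where 27.4% of all genes fell and 55.9% changed either way. *Exosc3*, a cap subunit, was the subunit that fell in *Nrde2*-KO and *Nrde2*Δ*200* cells, by a smaller amount, where 10.6 and 4.27% of all genes fell. No subunit was called in *Nrde2-D174R* or *Ccdc174-dTAG* cells, where 0.396 and 5.59% of all genes were. In ribosome footprints of *Nrde2*-KO cells *Exosc4* and *Dis3* fell, as did 14.2% of all genes.

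RNA-seq of total RNA depleted of ribosomal RNA was measured in 28 libraries of 14 groups, and Ribo-seq, which sequences the RNA stretches protected by ribosomes, in 4 libraries of 2 groups, with 2 libraries in each group. All cells came from male mESCs with a Cre recombinase that 4-hydroxytamoxifen (4OHT) activates, derived from 2 parental lines of which 1 also carries a biotin ligase, and were grown in serum with LIF and 2 kinase inhibitors. The labels do not say whether the 2 libraries of a group came from separate cultures, so p-values measure the spread between libraries, which may be technical. *Nrde2*-KO cells carried floxed *Nrde2* and received 100 nM 4OHT for 4 d, and *Mtrex*-KO cells carried floxed *Mtrex* and received it for 3 d. Their WT cells carried the same floxed alleles without 4OHT, so loss of the gene and exposure to 4OHT and active Cre cannot be told apart. *Nrde2*Δ*200* cells, whose NRDE2 lacks its amino-terminal region, and *Nrde2-D174R* cells, with a point mutation in that region, were homozygous, untreated edits. *Nrde2*-KO, *Nrde2*Δ*200* and *Nrde2-D174R* shared 1 pair of WT libraries. *Ccdc174-dTAG* cells carried CCDC174 fused to a degron and received 500 nM dTAG-13 for 24 h, and their WT carried the same fusion without the compound. A second *Nrde2*-KO experiment and the *Ccdc174-dTAG* experiment each had WT and depleted cells without and with cycloheximide (CHX), an inhibitor of translation, at 0.1 mg/ml for 4 h. Ribo-seq was done in *Nrde2*-KO cells and their WT.

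The exosome core is a barrel. Its ring is built from subunits related to the bacterial enzyme RNase PH, EXOSC4, EXOSC5, EXOSC6, EXOSC7, EXOSC8 and EXOSC9, which have no catalytic activity of their own in mammals. EXOSC1, EXOSC2 and EXOSC3 form a cap with RNA-binding domains at the entrance of the barrel, and RNA threads through it to DIS3, a processive exonuclease that is also an endonuclease. EXOSC10 is a second, nuclear exonuclease bound at the cap. The helicase MTREX feeds nuclear RNA into the barrel together with adaptor complexes, NRDE2 binds MTREX, and CCDC174 is a splicing-associated protein that the study examined beside NRDE2. The comparisons therefore ask whether the mRNAs of the exosome itself moved when the helicase, its partner or CCDC174 was lost.

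Every subunit mRNA is spliced, and the study examines splicing at 5′ splice sites. Those of *Exosc3* are shown, with single sites of *Exosc1*, *Exosc2* and *Exosc5*. Each is written 5′ to 3′ on the sense strand as 3 exonic and 6 intronic bases, read from the GRCm38 genome with GENCODE release M21, with the GT that starts the intron in capitals. *Exosc3* (ENSMUSG00000028322, chr4:45316613-45342732, minus strand) has 3 annotated coding-transcript sites:
Exosc3 intron 1, chr4:45320265-45320273: cggGTgagc
Exosc3 intron 2, chr4:45319544-45319552: cagGTaata
Exosc3 intron 3, chr4:45317672-45317680: aaaGTaggt

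Against the consensus CAGGTAAGT, these *Exosc3* sites match at 6, 7 and 6 of 9 positions. The median over 146244 sites of 12625 coding genes was 6 matches, and 55.2% of those sites had 6 or fewer. The 98 sites of the 10 subunits included 3 whose intron starts with GTATCC, the start typical of minor-class introns, 1 each in *Exosc1*, *Exosc2* and *Exosc5*:
Exosc1, chr19:41925183-41925191, minus strand: gttGTatcc
Exosc2, chr2:31675902-31675910, plus strand: agtGTatcc
Exosc5, chr7:25664446-25664454, plus strand: tctGTatcc

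This start occurred at 568 sites, or 0.388% of all sites, and in 532 genes, or 4.21% of genes. Sites were read on the strand of the gene, and the 2 motifs share their GTA. A match is a description of letters and no evidence of which spliceosome is used. *Exosc7* (ENSMUSG00000025785, chr9:123113215-123136129, plus strand) and *Exosc8* (ENSMUSG00000027752, chr3:54728678-54735393, minus strand) had 7 and 10 sites with medians of 7.0 and 6.5 matches, and none began with GTATCC.

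All 10 subunits were above the lower limit for testing in every comparison. A single subunit held 472 to 13464 of the 28683644 to 36272309 reads in genes of an RNA-seq library, and 91 to 981 of the 3475051 to 5035940 of a Ribo-seq library. Levels are the deposited CPM, read counts scaled to the total of a library, divided by a factor for each library that sets the median ratio between libraries to a common value, and are called normalised CPM. Differences are on the log2 scale and were tested with limma, a linear model fitted across all genes, and a gene was called where its p, adjusted over all genes tested, was below 0.01. The remaining ring subunit, *Exosc6* (ENSMUSG00000109941, chr8:111056339-111057664, plus strand), lies inside *Aars* on the same strand and is listed at 0 in all 32 libraries, where reads over more than 1 gene were not counted. It is not analysed here. *Exosc3* overlaps the processed pseudogene *Gm12585* on its own strand, so its value leaves out reads that fall on both.

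The libraries were checked against their labels with the targeted genes and with cell type markers. *Nrde2* RNA was 41.3 and 40.3 normalised CPM in the shared WT and 19.2 and 20.3 in *Nrde2*-KO, a fall of 1.04 on the log2 scale (limma, adjusted p = 3.54e-07). In the second experiment it was 53.3 and 51.9 in WT and 19.8 and 19.6 in *Nrde2*-KO. With CHX, however, *Nrde2* RNA was 242 and 224 in WT and 257 and 249 in the libraries labelled *Nrde2*-KO, so this RNA does not separate these groups. The markers of 2-cell-like cells, a rare state of mESC cultures, summed to 36.8 and 32.7 in these libraries labelled *Nrde2*-KO and to 3.42 and 3.26 in their WT with CHX, and 4 of the 4 tested were called higher. *Mtrex* RNA was 118 and 111 in its WT and 46.2 and 41.3 in *Mtrex*-KO. Its mean of 115 in this WT was below those of the other WT groups without CHX. These were 210 in the shared WT, 250 in the second *Nrde2* WT and 195 in the *Ccdc174* WT, and the cause was not tested. *Ccdc174* RNA was 28.2 in both WT libraries and 35.2 and 38.0 in *Ccdc174-dTAG*, where the compound acts on the protein. The 8 mESC markers summed to between 2771 and 4842 normalised CPM in the RNA-seq libraries, with *Nanog* at a median of 902, and the 3 fibroblast markers to at most 3.94 in the same libraries.

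The *Mtrex*-KO libraries stood apart from all others. Reads in genes made up 72.1 and 82.7% of the total behind their CPM, against 86.4 and 89.3% in their WT, and the non-coding gene *Gm26917* alone took 16.6 and 8.89% of reads in genes, against 3.31 and 3.16%. Their 2 libraries also differed more from each other than those of any other group, with a chi-square of 98.4 per gene against 2.77 to 42.9 elsewhere. All 5 markers of 2-cell-like cells rose in *Mtrex*-KO, and summed to 215 and 72.1 normalised CPM against 8.24 and 3.31 in WT. The same sum was 20.9 and 14.1 in *Nrde2*-KO against 2.26 and 1.45, and 61.3 and 57.5 in the second *Nrde2*-KO against 4.41 and 4.43, again with 5 of 5 called higher. In *Nrde2*Δ*200* it was 9.37 and 12.6, with 2 of 5 called higher. *Zscan4d* was the most abundant of these markers, at up to 107. The 3 trophectoderm markers summed to 189 and 192 in *Mtrex*-KO against 31.8 and 56.0 in WT, most of it *Krt8*, and both markers tested, *Krt8* and *Cdx2*, were called higher. *Cdx2* was at no more than 1.28 in WT and at 3.85 and 4.28 in *Mtrex*-KO, while *Elf5* stayed at or below 0.312 and was not tested. Of the 8 mESC markers 4 were called lower and 0 higher in *Mtrex*-KO, with a median difference of −0.35, and they summed to 2978 and 3986 against 4389 and 4842 in WT. Of the 4 primitive endoderm markers 2 were called higher and 0 lower there, and they summed to 15.1 and 13.8 against 10.7 and 10.4. Of the 2 fibroblast markers tested 1 was called higher and 1 lower. The fibroblast sums were 2.81 and 2.35 in *Mtrex*-KO against 3.67 and 2.10 in WT. The part of these cell states in the values of the subunits was not tested, and in these bulk samples fewer cells of a type and less RNA per cell cannot be told apart.

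In WT cells the subunit mRNAs differed 3.91-fold per length between the highest and the lowest median. Over the 8 WT libraries without CHX, the catalytic subunits *Exosc10* and *Dis3* had the highest medians, at 34.3 and 33.4 normalised CPM per kilobase of merged exons, with ranges of 27.5 to 45.7 and 22.7 to 44.1. The cap subunits *Exosc2* and *Exosc3* followed at 32.0 (25.5 to 33.9) and 27.7 (23.6 to 32.7), and the ranges of these 4 genes overlapped. *Exosc8*, at 19.3 (17.2 to 21.9), lay below all of them. *Exosc9* (16.2), *Exosc4* (12.1), *Exosc5* (10.4), *Exosc1* (9.14) and *Exosc7* (8.77) came next, each with a range that overlapped its neighbour in the order. The order of the highest 4 differed between the WT groups. *Dis3* led with a mean of 41.4 against 34.3 for *Exosc10* in the WT of the second *Nrde2* experiment and with 34.8 against 28.2 in the shared WT, while *Exosc10* led in the *Mtrex* WT, at 35.2 against 32.0. In the *Ccdc174* WT *Exosc10* led at 44.3, and *Dis3*, at 24.8, lay below *Exosc2* (33.7) and *Exosc3* (28.1). The order also rests on the length used. Per kilobase of coding sequence *Exosc2* was highest at 105 and *Exosc4* lowest at 31.8.

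**Figure D1:**
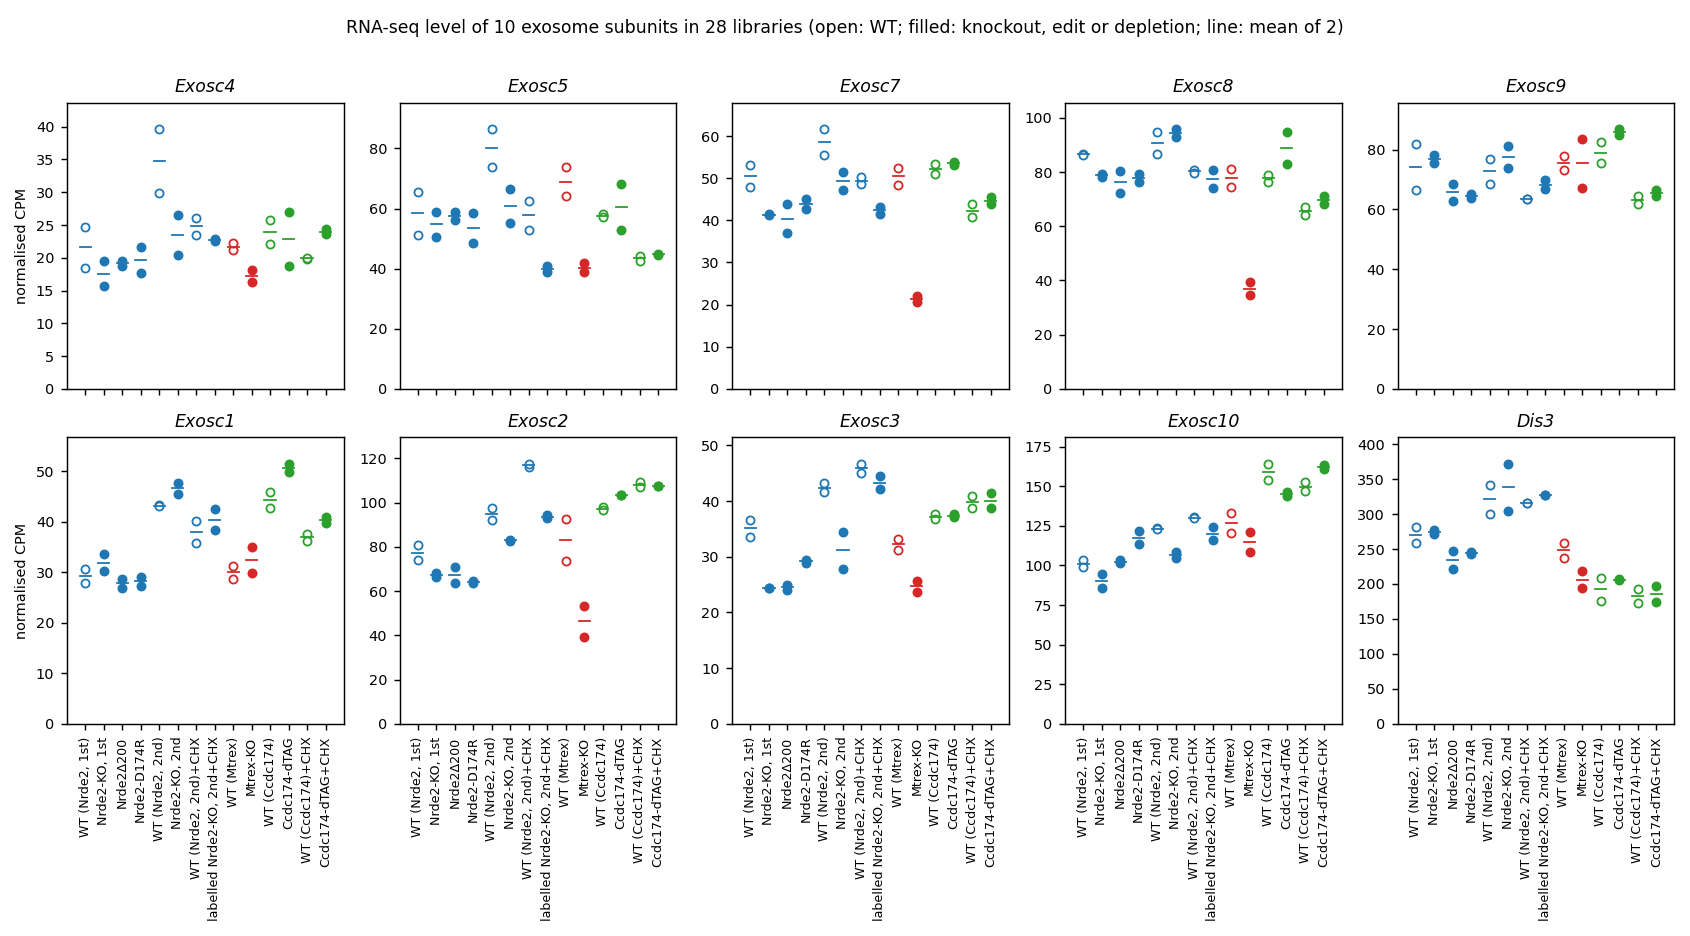
RNA-seq level of the 10 subunits (y axis, normalised CPM, from 0) in the 14 groups (x axis). Each point is 1 library, open for WT and filled for knockout, edit or depletion, coloured by experiment, and the line is the mean of 2 libraries. *Exosc7* and *Exosc8* in *Mtrex*-KO, between 20.7 and 39.5, lie below every other library of the same gene.

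*Mtrex*-KO gave the largest changes of the subunits. *Exosc7*, a ring subunit, was at 48.3 and 52.5 normalised CPM in WT and at 20.7 and 22.1 in *Mtrex*-KO. *Exosc8*, also of the ring, was at 74.3 and 81.1 in WT and at 34.5 and 39.5 in the knockout. The groups did not overlap for either gene, and both *Mtrex*-KO libraries were low. On the log2 scale *Exosc7* fell by 1.23 (95% interval −1.43 to −1.02, limma adjusted p = 7.22e-09) and *Exosc8* fell by 1.07 (−1.26 to −0.88, adjusted p = 1.76e-08). Both passed the study's rule of an adjusted p below 0.01 with a log2 difference past 1, which 26.7% of the 14889 genes tested passed in this comparison.

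*Exosc2*, *Exosc5* and *Exosc3* fell by less than 1 after normalisation. With CPM as deposited their differences were −1.24, −1.16 and −0.77, and *Exosc2* and *Exosc5* also passed the study's rule. The cap subunit *Exosc2* was at 73.6 and 92.6 in WT and at 39.1 and 53.4 in *Mtrex*-KO, a fall of 0.85 (−1.10 to −0.59, limma adjusted p = 8.26e-06). *Exosc5*, of the ring, was at 64.2 and 73.7 in WT and at 38.8 and 41.9 in the knockout, a fall of 0.77 (−1.07 to −0.46, adjusted p = 0.000162). For both genes the knockout libraries lay below both WT libraries. *Exosc3* was at 31.3 and 33.1 against 23.7 and 25.7, a fall of 0.38 (−0.59 to −0.17, adjusted p = 0.00266). A fit of only the compared groups has fewer libraries and takes its spread from these groups alone. In that fit the calls of *Exosc2* and *Exosc3* ended, and the cause was not tested. Leaving out WT replicate 2 or *Mtrex*-KO replicate 1 ended the call of *Exosc3*, with adjusted p of 0.0271 and 0.0242. The calls of *Exosc2*, *Exosc5*, *Exosc7* and *Exosc8* held without any 1 of the 4 libraries, with falls of 0.63 to 1.07, 0.67 to 0.87, 1.17 to 1.29 and 0.97 to 1.17.

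The other subunits did not pass the test by limma in *Mtrex*-KO. *Exosc9* was at 73.1 and 78.0 in WT and at 67.3 and 83.6 in *Mtrex*-KO, a log2 difference of −0.01 (−0.24 to 0.22). *Exosc1* went from 28.7 and 31.3 to 29.9 and 35.1, at 0.11 (−0.10 to 0.32). *Exosc10*, the nuclear exonuclease, was at 120 and 133 in WT and at 108 and 121 in the knockout, at −0.14 (−0.31 to 0.03). The values of these 3 genes overlapped between the groups. *Dis3* (238 and 259 against 194 and 218) and *Exosc4* (21.2 and 22.3 against 16.4 and 18.2) did not overlap, with differences of −0.27 and −0.33 and adjusted p of 0.0347 and 0.137. By edgeR *Dis3* was called lower, at −0.35 (adjusted p = 0.0083), and by DESeq2 it was not. So 5 of 10 subunits were called lower and 0 higher, where 27.4% of all tested genes were called lower and 55.9% were called in either direction. The median difference of the 10 subunits was −0.35, and that of all genes was −0.00. With CPM as deposited, where the median gene shifted by −0.38, the 10 subunits had a median of −0.75 and 8 were called lower, the exceptions being *Exosc1* and *Exosc9*. Calls among all genes were then 27.5% higher, against 51% after normalisation.

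**Figure D2:**
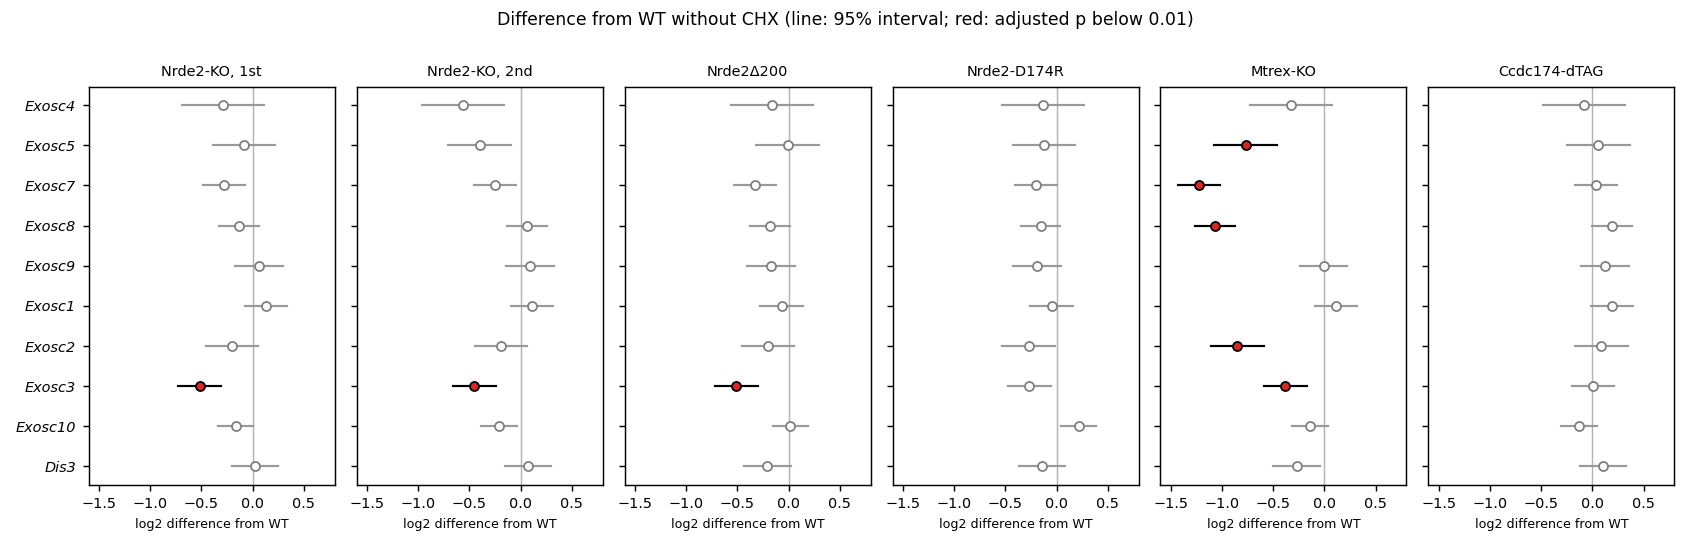
Difference of each subunit from its WT without CHX (x axis, log2 difference) for 6 comparisons, with the 95% interval as a line. Red points passed an adjusted p below 0.01, which were 5 subunits in *Mtrex*-KO, *Exosc3* in both *Nrde2*-KO experiments and in *Nrde2*Δ*200*, and 0 in *Nrde2-D174R* and *Ccdc174-dTAG*.

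*Exosc3* fell when NRDE2 was lost or shortened. It was at 33.6 and 36.5 normalised CPM in the shared WT, at 24.4 in both *Nrde2*-KO libraries, at 24.9 and 24.1 in *Nrde2*Δ*200* and at 28.8 and 29.5 in *Nrde2-D174R*. All 6 edited or knockout libraries lay below both WT libraries, with *Nrde2-D174R* in between. The fall was 0.52 in *Nrde2*-KO (95% interval −0.73 to −0.31, limma adjusted p = 0.000821) and 0.51 in *Nrde2*Δ*200* (−0.72 to −0.30, adjusted p = 0.00207), and these comparisons share their WT. *Nrde2-D174R* had a difference of −0.26 (−0.47 to −0.06), which did not pass (adjusted p = 0.181). In the second experiment, with its own WT, *Exosc3* was at 41.6 and 43.2 in WT and at 34.5 and 27.7 in *Nrde2*-KO, a fall of 0.45 (−0.66 to −0.24, adjusted p = 0.00227). There the 2 knockout libraries lay far apart, and the difference was −0.29 without the lower of them (adjusted p = 0.057).

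These calls of *Exosc3* were sensitive to single libraries. In the first *Nrde2*-KO comparison the call ended without WT replicate 2 (adjusted p = 0.016). In *Nrde2*Δ*200* it held only without WT replicate 1 among the 4 libraries left out, and the adjusted p was 0.0376 without WT replicate 2, 0.0132 without *Nrde2*Δ*200* replicate 1 and 0.0331 without replicate 2. In the second experiment it ended without WT replicate 1, WT replicate 2 or *Nrde2*-KO replicate 2, at 0.0119, 0.0268 and 0.057. The direction held throughout, between −0.61 and −0.29. With CPM as deposited the call was lost in all 3 comparisons, at −0.46, −0.47 and −0.40 with limma adjusted p of 0.0148, 0.0246 and 0.0317. Cell type markers beside those of 2-cell-like cells moved as well. In the first *Nrde2*-KO 2 of 8 mESC markers were called lower, with sums of 4128 and 4618 in WT and 3358 and 3823 in the knockout, 1 of 4 primitive endoderm markers was called higher, with sums of 11.8 and 11.4 against 19.9 and 17.7, and *Cdx2* was the trophectoderm marker called, from 0.723 and 1.06 to 3.04 and 2.17. The trophectoderm sum went the other way, from 41.0 and 48.5 to 31.3 and 32.7, with *Krt8* at 40.2 and 47.4 against 28.2 and 30.5 and not called. In the second *Nrde2*-KO 0 mESC markers were called, 1 primitive endoderm marker was called higher, with sums of 9.13 and 7.52 against 15.2 and 11.3, and *Cdx2* was called higher, from 0.963 and 1.02 to 3.17 and 2.71. There the trophectoderm sum was 49.7 and 41.9 in WT and 42.8 and 25.8 in the knockout, with *Krt8* at 48.6 and 40.8 against 39.5 and 23.1 and not called. In *Nrde2*Δ*200* 0 markers of these 3 lists were called. The part of these markers in the values of *Exosc3* was not tested.

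No other subunit passed in these comparisons. In *Nrde2*-KO 1 of 10 subunits was called lower, where 10.6% of all genes were and 18.2% were called in either direction, and the median of the 10 was −0.15. In *Nrde2*Δ*200* the count was also 1, against 4.27% of all genes lower and 7.49% either way, with a median of −0.18, and in the second *Nrde2*-KO it was 1, against 11.3% and 18.7%, with a median of −0.20. For *Nrde2-D174R* the count was 0 by limma, edgeR and DESeq2, with 3 subunits at an unadjusted p below 0.05, as were 17.6% of all genes, and a median of −0.15, and 0.396% of all genes were called. *Exosc7* was the nearest to a call, at 47.9 and 53.0 in the shared WT and 41.5 and 41.2 in *Nrde2*-KO, a difference of −0.28 (adjusted p = 0.0353), with −0.32 in *Nrde2*Δ*200* (adjusted p = 0.03). In the second experiment *Exosc4* and *Exosc5* had differences of −0.56 and −0.40 with adjusted p of 0.0317 and 0.0444. *Exosc4* was at 30.0 and 39.7 in WT and at 26.6 and 20.4 in *Nrde2*-KO, while *Exosc5* was at 73.9 and 86.6 against 66.6 and 55.0. In the first experiment the same genes overlapped between WT and *Nrde2*-KO. *Exosc1*, *Exosc9* and *Dis3* had positive differences of 0.02 to 0.13 in both experiments, none past the test.

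*Ccdc174-dTAG* left the subunits without a call. *Exosc3* was at 37.6 and 36.8 in WT and at 37.6 and 37.1 after dTAG-13, a log2 difference of 0.01 with a 95% interval of −0.20 to 0.21. *Exosc7* was at 53.4 and 50.9 against 53.9 and 53.2. The count was 0 of 10 by limma, edgeR and DESeq2, and 0 also at an unadjusted p below 0.05, where 5.59% of all genes were called and 25.4% had an unadjusted p below 0.05. The median of the 10 was 0.07, and the differences ran from −0.13 for *Exosc10* to 0.19 for *Exosc1* and *Exosc8*. With CHX in both groups the count was again 0 with all 3 tools, with 2 subunits at an unadjusted p below 0.05 against 35.4% of all genes, and 9.05% of all genes called. *Exosc4* had the largest difference there, at 0.27 (0.11 to 0.43, limma adjusted p = 0.0259), from 19.9 in both WT libraries to 24.3 and 23.6.

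The effects of the perturbations were compared with each other by interaction terms. The *Mtrex*-KO effect was more negative than the first *Nrde2*-KO effect for *Exosc7* by 0.94 (95% interval −1.23 to −0.65, limma adjusted p = 3.25e-05), for *Exosc8* by 0.93 (−1.20 to −0.66, adjusted p = 1.91e-05) and for *Exosc2* by 0.65 (−1.01 to −0.29, adjusted p = 0.00517). These 3 of 10 subunits stand against 14.1% of all genes called in that direction and 31.5% in either. The term for *Exosc2* did not pass without *Nrde2* WT replicate 1 (adjusted p = 0.0266), *Nrde2*-KO replicate 1 (0.0137) or 2 (0.0201), *Mtrex* WT replicate 2 (0.0386) or *Mtrex*-KO replicate 1 (0.0254), and ran from −0.87 to −0.42 without 1 library. *Exosc5* differed by −0.68 without passing (adjusted p = 0.012), and passed with edgeR and DESeq2. These terms rest on the first *Nrde2*-KO, where *Exosc7*, *Exosc8*, *Exosc2* and *Exosc5* differed from WT by −0.28, −0.13, −0.20 and −0.09. In the second *Nrde2*-KO they differed by −0.25, 0.06, −0.19 and −0.40, so the value for *Exosc5* depends on the experiment used. With CPM as deposited *Exosc7*, *Exosc8*, *Exosc2* and *Exosc5* stood at −1.39, −1.38, −1.10 and −1.13. For *Exosc3* the 2 knockouts differed by 0.14 (−0.16 to 0.43). The *Ccdc174-dTAG* effect minus the *Nrde2*-KO effect was called for 0 of 10 subunits by limma, edgeR and DESeq2, with 3 at an unadjusted p below 0.05 against 22.2% of all genes, and 1.65% of all genes called. *Exosc3* had the largest value, 0.52 (0.23 to 0.82, adjusted p = 0.0325). A difference of *Exosc3* between loss of NRDE2 and loss of CCDC174 therefore did not pass the test.

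CHX lowered *Exosc5*, a ring subunit, in all 4 backgrounds. It went from 73.9 and 86.6 to 53.0 and 62.6 in the WT of the second *Nrde2* experiment, and from 66.6 and 55.0 to 40.8 and 38.8 in the libraries labelled *Nrde2*-KO. In the *Ccdc174* experiment it went from 58.1 and 57.1 to 44.3 and 42.5 in WT and from 68.2 and 52.7 to 44.9 and 44.6 in *Ccdc174-dTAG*. Every library with CHX was below every library without it in the same background. The falls were 0.47, 0.60, 0.40 and 0.42, with limma adjusted p of 0.00352, 0.000532, 0.00898 and 0.00701. Only the call in the libraries labelled *Nrde2*-KO remained with CPM as deposited, at −0.42 (adjusted p = 0.0054), and the other values were −0.26, −0.17 and −0.18 with adjusted p of 0.0645, 0.215 and 0.181. The calls after normalisation also rested on single libraries. In the WT of the second *Nrde2* experiment the call ended without untreated replicate 2 (adjusted p = 0.0494) or CHX replicate 1 (0.0545), and in the libraries labelled *Nrde2*-KO without untreated replicate 1 (0.0105). In the *Ccdc174* WT it ended without any 1 of the 4 libraries (0.0278 to 0.0535), and in *Ccdc174-dTAG* without untreated replicate 1 (0.114), CHX replicate 1 (0.0321) or CHX replicate 2 (0.0359). Leaving out 1 library moved the difference in *Ccdc174-dTAG* to between −0.60 and −0.24.

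*Exosc3* and *Exosc2* were called higher with CHX in 1 background each after normalisation, and in all 4 with CPM as deposited. In the libraries labelled *Nrde2*-KO *Exosc3* was at 34.5 and 27.7 without CHX and at 44.4 and 42.1 with it, a rise of 0.48 (95% interval 0.29 to 0.67, limma adjusted p = 0.000307) that held without any 1 library. In the matched WT it was at 41.6 and 43.2 without and 45.1 and 46.7 with CHX, at 0.11 (−0.08 to 0.31). *Exosc2* rose by 0.30 in that WT, from 92.1 and 97.6 to 116 and 118 (adjusted p = 0.00025). Both genes had positive differences in the remaining backgrounds as well, *Exosc2* at 0.17 in the libraries labelled *Nrde2*-KO (adjusted p = 0.0127), 0.15 in the *Ccdc174* WT (0.0263) and 0.05 in *Ccdc174-dTAG* (0.405), and *Exosc3* at 0.10 in both *Ccdc174* backgrounds. With CPM as deposited *Exosc2* stood at 0.51, 0.35, 0.38 and 0.29 and *Exosc3* at 0.32, 0.66, 0.33 and 0.33 in the WT and the libraries labelled *Nrde2*-KO of the second experiment and the *Ccdc174* WT and *Ccdc174-dTAG*. In the *Ccdc174* experiment *Exosc1*, *Exosc7* and *Exosc9* fell in WT, by 0.26, 0.30 and 0.32, and in *Ccdc174-dTAG*, by 0.33, 0.26 and 0.39, and *Exosc8* fell in *Ccdc174-dTAG* by 0.34 and in the libraries labelled *Nrde2*-KO by 0.29. Of these 8 calls only that of *Exosc9* in *Ccdc174-dTAG* held without any 1 library. Leaving out the untreated WT replicate 1 ended those of *Exosc1* (adjusted p = 0.0756), *Exosc7* (0.026) and *Exosc9* (0.0268) in the *Ccdc174* WT, and leaving out CHX replicate 2 did so too (0.0615, 0.0356 and 0.0203). In *Ccdc174-dTAG* that of *Exosc7* ended without any 1 library (0.0198 to 0.0542), that of *Exosc1* without untreated replicate 1 (0.0127) or CHX replicate 2 (0.0204), and that of *Exosc8* without untreated replicate 2 (0.0167) or CHX replicate 1 (0.0142). In the libraries labelled *Nrde2*-KO that of *Exosc8* held only without CHX replicate 2. *Dis3* had differences of −0.15 to −0.02 and was not called in any background.

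**Figure D3:**
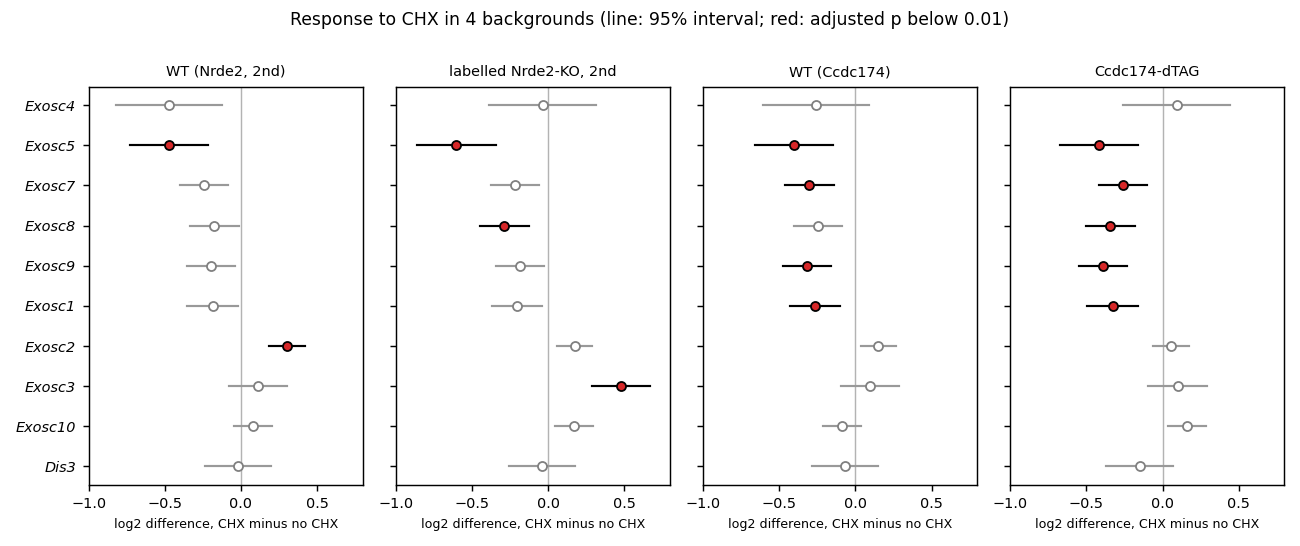
Response of each subunit to CHX (x axis, log2 difference of CHX minus no CHX) in 4 backgrounds, with 95% intervals as lines and calls at an adjusted p below 0.01 in red. *Exosc5* is red in all 4 panels, between −0.60 and −0.40, and *Exosc3* is red in the libraries labelled *Nrde2*-KO, at 0.48.

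The CHX calls were 1 higher and 1 lower in the WT of the second *Nrde2* experiment, 1 higher and 2 lower in the libraries labelled *Nrde2*-KO, 4 lower in the *Ccdc174* WT and 5 lower in *Ccdc174-dTAG*. Among all genes 47.5, 48.9, 49.5 and 50.4% were called in these comparisons, and 22.4, 22.5, 24.1 and 24.1% were called lower. In the first and the second of these, 25.1 and 26.3% of all genes were called higher. The medians of the 10 subunits were −0.18, −0.11, −0.25 and −0.21. The direction of the counts depends on the scale. With CPM as deposited the median gene shifted by 0.17 to 0.22 with CHX, and the calls among the subunits became 3 higher and 0 lower, 3 higher and 1 lower, 2 higher and 0 lower, and 3 higher and 0 lower. The higher calls were then *Exosc2* and *Exosc3* in each background and *Exosc10* in all but the *Ccdc174* WT, and the lower call was *Exosc5* in the libraries labelled *Nrde2*-KO. No subunit that was called after normalisation turned its sign, but *Exosc1* and *Exosc7* stood at −0.03 and −0.07 in the *Ccdc174* WT and at −0.09 and −0.02 in *Ccdc174-dTAG* with CPM as deposited. Cell type markers moved in the same comparisons. Of the 8 mESC markers 4, 6, 6 and 7 were called lower and 1 higher in each, with median differences of −0.35, −0.55, −0.44 and −0.61, and the sum went from 4734 and 4698 to 3499 and 3461 in the WT of the second *Nrde2* experiment. Of the 4 primitive endoderm markers 1, 2, 2 and 1 were called higher and 0 lower. Their sum went from 9.13 and 7.52 to 12.4 and 11.3 in that WT and from 15.2 and 11.3 to 23.2 and 18.8 in the libraries labelled *Nrde2*-KO, with *Gata4* the most abundant, and from 4.43 and 4.37 to 8.78 and 9.13 in the *Ccdc174* WT and from 6.54 and 6.71 to 10.4 and 11.0 in *Ccdc174-dTAG*. Of the 2 trophectoderm markers tested 1 was called lower and 0 higher in each, and of the 5 markers of 2-cell-like cells 2 were called lower in the libraries labelled *Nrde2*-KO and 0 in the others. The part of these markers in the CHX values of the subunits was not tested.

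With CHX in both groups, *Exosc2* and *Exosc5* fell in the libraries labelled *Nrde2*-KO. *Exosc2* was at 116 and 118 in WT and at 92.9 and 94.3 in the libraries labelled *Nrde2*-KO, a fall of 0.32 (95% interval −0.42 to −0.22, limma adjusted p = 0.000252). *Exosc5* was at 53.0 and 62.6 against 40.8 and 38.8, a fall of 0.53 (−0.70 to −0.36, adjusted p = 0.000302). *Exosc3*, at 45.1 and 46.7 against 44.4 and 42.1, had a difference of −0.09 (−0.22 to 0.05). So 2 of 10 subunits were called lower, where 15.4% of all genes were and 27.8% were called either way. Of the 8 mESC markers 4 were called lower and 1 higher in the same comparison, with sums of 3499 and 3461 in WT and 2990 and 2909 in the libraries labelled *Nrde2*-KO. Of the 4 primitive endoderm markers 2 were called higher, with sums of 12.4 and 11.3 against 23.2 and 18.8, and of the 2 trophectoderm markers tested *Cdx2* was called higher and *Krt8* lower. The part of these markers was not tested. The interaction of CHX with the *Nrde2*-KO label was called for 0 of 10 subunits by limma, edgeR and DESeq2, with 1 at an unadjusted p below 0.05 against 14.8% of all genes, and for 0.515% of all genes. *Exosc3* had an interaction of 0.37 (0.09 to 0.64, adjusted p = 0.178), so its smaller difference with CHX did not pass as a difference between the conditions. The interaction of CHX with *Ccdc174-dTAG* was also called for 0 of 10 with all 3 tools, with 1 at an unadjusted p below 0.05 against 9.67% of all genes, where 0.251% of all genes were called.

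Ribosome footprints put the subunits in another order, which also rests on the length used. Per kilobase of merged exons *Exosc10* was highest in WT footprints, as in RNA, at a mean of 25.5 normalised CPM. There *Exosc4* followed at 20.2, and *Dis3* and *Exosc5* were at 16.4 and 15.6. Per kilobase of coding sequence in the 2 WT libraries, the ring subunit *Exosc5* was highest at a mean of 110 normalised CPM (109 and 111), *Exosc4* followed at 53.1 (50.8 and 55.4), and the cap subunit *Exosc3* was lowest at 21.3 ± 2.35 (SD, n = 2). *Exosc8* and *Exosc2*, at 45.3 and 45.1, had overlapping values, and both libraries of *Dis3*, at 43.1 (41.9 and 44.3), lay below them. The log2 ratio of footprints to RNA of the first experiment was 0.85 for *Exosc4* and 0.74 for *Exosc5*, above 94.0 and 92.8% of 12867 coding genes. It was −0.14 for *Exosc10* and between −1.18 and −0.69 for the remaining 7 subunits, and the median of coding genes was −0.98. The RNA and footprint libraries were scaled separately, so only the order of such ratios can be read.

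In *Nrde2*-KO footprints *Exosc4* and *Dis3* fell. *Exosc4* was at 37.6 and 40.9 normalised CPM in WT and at 22.9 and 26.4 in *Nrde2*-KO, a fall of 0.67 (95% interval −0.90 to −0.43, limma adjusted p = 9.02e-05). *Dis3*, the processive exonuclease, was at 123 and 130 against 99.9 and 98.9, a fall of 0.35 (−0.51 to −0.19, adjusted p = 0.00157). Both knockout libraries lay below both WT libraries, and both calls held without any 1 library. *Exosc3* footprints were at 17.3 and 20.2 in WT and at 16.3 and 12.7 in *Nrde2*-KO, a difference of −0.37 (−0.68 to −0.06) that did not pass (adjusted p = 0.0582). *Exosc8* went the other way, from 37.6 and 38.6 to 44.6 and 46.5, at 0.26 (adjusted p = 0.0417). *Exosc5* was at 96.7 and 98.5 against 102 and 92.0. The count was 2 of 10 lower, where 14.2% of all genes were called lower and 25.2% in either direction, and the median of the 10 was −0.08. With CPM as deposited the median gene shifted by 0.14 and the count was 0, with *Exosc4* at −0.52 (adjusted p = 0.0113) and *Dis3* at −0.20 (adjusted p = 0.336). By edgeR both were called, and by DESeq2 *Exosc4* was and *Dis3* was not. Markers of other cell types also moved in these footprints. The 4 primitive endoderm markers summed to 2.86 and 2.66 in WT and to 10.2 and 9.07 in *Nrde2*-KO, with *Pdgfra* the most abundant, *Sox17* at 0 in 1 WT library and 2 of the 3 tested called higher. The 3 fibroblast markers, mainly *Thy1* and *Col1a1*, summed to 6.63 and 7.05 against 14.5 and 12.3, with 1 of the 2 tested called higher. The trophectoderm marker *Krt8* was called lower, from 8.06 and 9.44 to 3.94 and 3.63, and took the sum of its 3 markers from 8.71 and 9.97 to 4.84 and 4.41, while *Cdx2* was at 0.390 and 0.399 against 0.895 and 0.648 without a call. Of the 8 mESC markers 1 was called higher and 1 lower. The part of these markers in the footprint values was not tested.

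**Figure D4:**
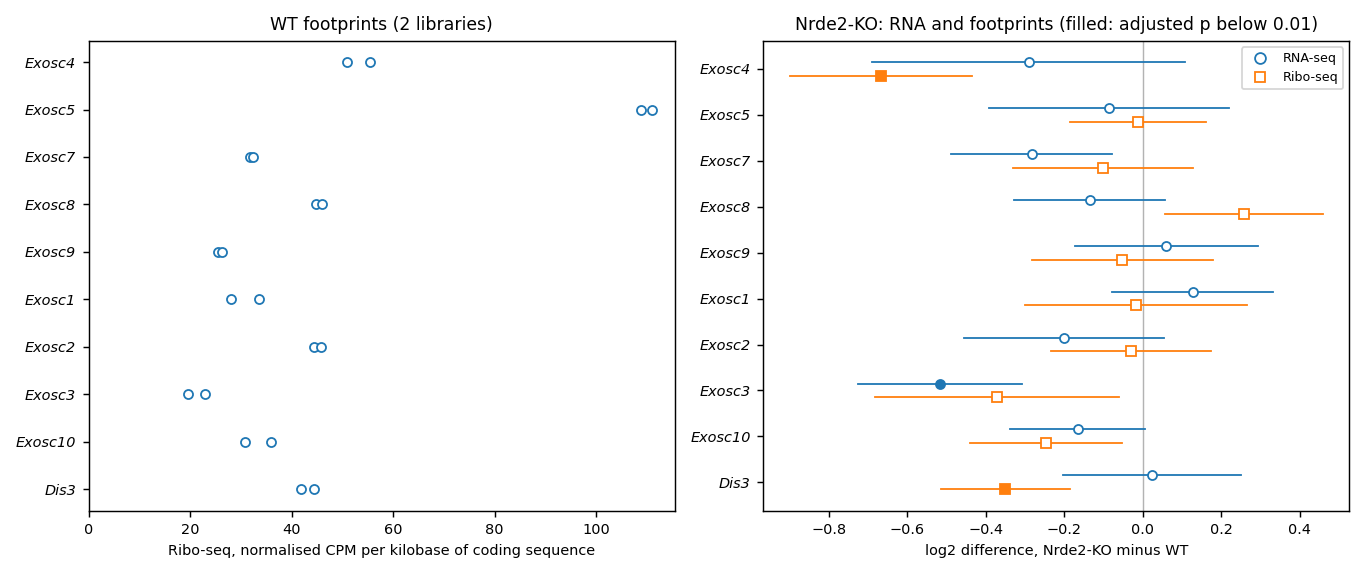
Left, WT footprints of each subunit (x axis, Ribo-seq normalised CPM per kilobase of coding sequence), 1 point for each of 2 libraries. Right, log2 difference of *Nrde2*-KO minus WT in RNA-seq (circles) and Ribo-seq (squares) with 95% intervals, filled where the adjusted p was below 0.01. *Exosc3* is filled in RNA-seq, and *Exosc4* and *Dis3* are filled in Ribo-seq.

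The footprint effect of *Nrde2*-KO minus its RNA effect was called for 0 of 10 subunits by limma and edgeR and for 1, *Dis3*, by DESeq2. In limma 2 subunits and 29.8% of all genes had an unadjusted p below 0.05, and 5.19% of all genes were called. *Dis3* RNA was at 258 and 281 in WT and at 277 and 272 in *Nrde2*-KO, and its footprint effect was lower than its RNA effect by −0.37 (95% interval −0.59 to −0.16, limma adjusted p = 0.0251). For *Exosc8* the value was 0.39 (0.16 to 0.62, adjusted p = 0.0275) and for *Exosc4* −0.38 (−0.83 to 0.08, adjusted p = 0.256). *Exosc4* RNA was at 18.5 and 24.8 in WT and at 15.6 and 19.5 in the knockout. These terms use the RNA of the first experiment, where *Exosc4*, *Dis3* and *Exosc8* differed by −0.29, 0.02 and −0.13. In the RNA of the second experiment they differed by −0.56, 0.07 and 0.06, so the value for *Exosc4* rests on the experiment used.

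The subunits varied to unlike degrees and not as 1 block. Across the 14 RNA-seq group means the log2 range was narrowest for *Exosc9*, at 0.44, and widest for *Exosc7*, at 1.44, with *Exosc2* and *Exosc8* at 1.35. Over the 45 pairs of subunits the median Pearson correlation of log2 group means was 0.37, and 38 pairs were above 0. *Exosc7* and *Exosc8* were the most alike, at 0.93, and at 0.66 over the 13 groups without *Mtrex*-KO. *Exosc2* and *Exosc3*, both of the cap, correlated at 0.88, and at 0.89 without *Mtrex*-KO. The exonucleases *Exosc10* and *Dis3* ran against each other, at −0.59 and at −0.64 without *Mtrex*-KO. Several groups come from the same experiment, so these correlations are descriptions. Group means of *Exosc10* were 145 to 162 in the *Ccdc174* experiment and 90.3 to 130 in the *Nrde2* experiments. Those of *Dis3* were 183 to 206 and 234 to 338. In the *Mtrex* WT and knockout they were 127 and 115 for *Exosc10* and 248 and 206 for *Dis3*. The part of the experiment in these correlations was not tested. Among 10400 other genes, *Prpf4*, *Rex1bd* and *Polr2i* had group means most like the mean profile of the 10 subunits (0.97, 0.96 and 0.95), and *Gins1*, *Chaf1b* and *Rhebl1* were most like *Exosc7* (0.97 each). The mean of *Exosc7* was 21.4 in *Mtrex*-KO and 40.4 to 58.6 in the other groups. These likenesses to other genes were not computed without *Mtrex*-KO.

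Genes that work with the exosome were set beside the subunits. Of 19 nuclear cofactors and adaptors, 3 rose and 7 fell in *Mtrex*-KO, where 55.9% of all genes were called. Apart from the deleted *Mtrex* itself, at −1.39, those furthest from 0 were *Zfc3h1*, a scaffold of the polyadenylated RNA exosome connection, which rose by 1.25, and *Mphosph6*, a protein of the nuclear exosome, and *Tent4a*, a poly(A) polymerase, which fell by 0.74 and 0.72. In the first *Nrde2*-KO 2 of the 19 fell, *Nrde2* and *Zc3h18*, an adaptor between the cap-binding complex and the exosome, which fell by 0.60, and 18.2% of all genes were called. In *Ccdc174-dTAG* 1 fell, again *Zc3h18*, by 0.65, against 5.59% of all genes called. The count by limma was 0 in *Nrde2*Δ*200* and *Nrde2-D174R*, with 8 and 3 at an unadjusted p below 0.05, where 30.1 and 17.6% of all genes were. In the second *Nrde2*-KO 1 rose and 3 fell, led by *Nrde2* and *Wdr74*, at −1.40 and −0.72, against 18.7% of all genes called. In *Nrde2*-KO footprints 0 rose and 7 fell, led by *Nrde2* and *Wdr74*, at −2.16 and −0.80, where 14.2% of all genes fell and 25.2% were called. With CHX in both groups 2 rose and 2 fell in the libraries labelled *Nrde2*-KO, led by *Zfc3h1* at 0.49 and *Wdr74* at −0.41, and 3 rose in *Ccdc174-dTAG*, led by *Zfc3h1* at 0.42 and *Zcchc7* at 0.24, against 27.8 and 9.05% of all genes called. In response to CHX 3 rose and 7 fell in the WT of the second *Nrde2* experiment, 5 and 7 in the libraries labelled *Nrde2*-KO, 3 and 10 in the *Ccdc174* WT, and 4 and 7 in *Ccdc174-dTAG*. All genes were called at shares of 47.5, 48.9, 49.5 and 50.4% there.

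The cytoplasmic partner *Skiv2l*, the helicase that feeds RNA to the cytoplasmic exosome, was called lower in each knockout, in *Nrde2*Δ*200* and in *Ccdc174-dTAG*. It was at 49.8 and 54.1 normalised CPM in the shared WT, at 27.7 and 25.5 in *Nrde2*-KO and at 28.4 and 30.5 in *Nrde2*Δ*200*. In the *Ccdc174* experiment it was at 57.7 and 50.5 in WT and at 27.9 and 20.8 in *Ccdc174-dTAG*. It fell by 0.96 in *Nrde2*-KO, 0.81 in *Nrde2*Δ*200*, 1.16 in the second *Nrde2*-KO, 0.47 in *Mtrex*-KO and 1.15 in *Ccdc174-dTAG*, with limma adjusted p of 1.54e-05, 0.000246, 1.83e-06, 0.00216 and 4.26e-06. Its footprints fell from 40.3 and 39.0 to 11.6 and 8.94 in *Nrde2*-KO, by 1.93. Of the 5 cytoplasmic cofactors it was the only one called in *Nrde2*-KO, *Nrde2*Δ*200*, the second *Nrde2*-KO and *Ccdc174-dTAG* without CHX, where 18.2, 7.49, 18.7 and 5.59% of all genes were called. In *Mtrex*-KO *Dis3l*, the cytoplasmic paralogue of *Dis3*, also fell, by 0.45, and *Hbs1l* rose by 0.29, where 55.9% of all genes were called. Of 5 other exoribonucleases, 0 were called by limma in the *Nrde2* and *Ccdc174* comparisons without CHX, at shares of all genes called that ran from 0.396 to 18.7%. *Dis3l2* fell by 0.38 in *Mtrex*-KO, where 55.9% of all genes were called. The footprints of *Xrn2* and *Xrn1* fell by 0.59 and 0.49 in *Nrde2*-KO, where 14.2% of all genes fell and 25.2% were called.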

How the data were processed

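RNA-seq and Ribo-seq tables of 55335 genes were used. STAR (2.7.0a and 2.7.3a in the submitters' processing notes) mapped the reads to mm10, featureCounts assigned unique reads to GENCODE M23 genes by strand, and the authors deposited the result as CPM. Ribo-seq reads were first trimmed and collapsed by the authors. The CPM were whole multiples of 1 read in 100% of values within 0.1, so reads were recovered. Genes were named with GENCODE M21, which holds 55154 of the identifiers.

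CPM were divided by median-of-ratios factors, 0.25 was added, and log2 values were tested with limma 3.58.1 (R 4.3.3) with a trend, for genes of at least 0.5 mean CPM, in 5 fits that share the spread among their groups, with Benjamini-Hochberg adjustment over all genes. A call was an adjusted p below 0.01. Log2 differences are on this scale, which understates changes of low genes. edgeR 4.0.16 and DESeq2 1.42.0 were run on recovered reads as alternatives, and limma was tested on simulated data. The replicate numbers are shared by groups, and no source ties them to a culture. Binding data of the series were not analysed here. The subunits, the gene lists and the tests were chosen with earlier results of these data known. All 10 subunits, the targeted genes and the called list genes with the largest differences (up to 4 in the *Mtrex*-KO, first *Nrde2*-KO and *Ccdc174-dTAG* comparisons, up to 2 elsewhere) were named, and not all are printed.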

Additional observations from a re-analysis of the deposited data

Results flagged for a closer look

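The effects of the 2 knockouts on 3 subunits differed by an interaction term in limma. The *Mtrex*-KO effect minus the first *Nrde2*-KO effect was −0.94 for *Exosc7*, −0.93 for *Exosc8* and −0.65 for *Exosc2* on the log2 scale. The values of *Exosc7* and *Exosc8* remained past the threshold without any 1 of the 8 libraries, and that of *Exosc2* in 3 of 8 such cases, with a highest adjusted p of 0.0386. With CPM as deposited the differences were −1.39 for *Exosc7*, −1.38 for *Exosc8* and −1.10 for *Exosc2*. The *Mtrex*-KO libraries were those with 72.1 and 82.7% of the total in genes, and the part of this in the difference was not tested. No group holds the 4 or more libraries that a test for outlying samples needs.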

How the results depend on the processing

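No called subunit turned its sign under any alternative. The number of called subunits stayed within 1.5 times the value reported in 145 of 164 recalculations that kept all libraries. These include the comparisons with 0 called subunits, where a count of 0 again was taken as unchanged. An equal count need not hold the same genes, and counts without 1 library at a time are given separately below. With CPM as deposited it became 0 in *Nrde2*-KO, *Nrde2*Δ*200*, the second *Nrde2*-KO and *Nrde2*-KO footprints (*Exosc3* in RNA stayed at −0.47 to −0.40), 8 in *Mtrex*-KO, 5 for the *Mtrex*-KO effect minus the *Nrde2*-KO effect, and, for CHX, 2 in the *Ccdc174* WT and 3 in *Ccdc174-dTAG*. The share of higher calls among all genes moved from 41.9 to 55.6% in *Nrde2*-KO, 43 to 57.3% in *Nrde2*Δ*200*, 55.4 to 22.7% for the *Mtrex*-KO minus the *Nrde2*-KO effect, 43.7 to 69.1% in footprints, and in response to CHX from 51.4 to 53.9% up to 72.3 to 76.2%. A fit of only the compared groups has fewer libraries and takes its spread from these groups alone. With it the count became 0 in the second *Nrde2*-KO, 3 in *Mtrex*-KO (*Exosc2* at a limma adjusted p of 0.0109 and *Exosc3* at 0.048) and 1 for CHX in *Ccdc174-dTAG*. With no filter the count became, for CHX, 1 in the WT of the second *Nrde2* experiment, 2 in the *Ccdc174* WT and 3 in *Ccdc174-dTAG*, and 1 in footprints. DESeq2 gave 4 and 5 for CHX in the WT and the libraries labelled *Nrde2*-KO of the second experiment, 1 in footprints and 1 for footprints minus RNA. The cause of the changes with only the compared groups, with the filter and with DESeq2 was not tested.

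With the replicate number as a block the count was 5 in *Mtrex*-KO, 1 in each *Nrde2*-KO experiment and in *Nrde2*Δ*200*, 4 for the *Mtrex*-KO effect minus the *Nrde2*-KO effect and 5 for CHX in the *Ccdc174* WT, and no count moved by over 1.5 times. Same-numbered libraries correlated in their deviations between −0.11, in *Nrde2*Δ*200*, and 0.53, over 2 pairs each. No source ties a number to a culture or batch, so the numbers were not taken as pairs, and whether same-numbered libraries share a source was not tested. Crossing the numbers of *Nrde2*Δ*200*, an alternative added after the data were seen, gave 1 call.

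Without 1 library at a time, the remaining library being assumed to vary like the other groups, the counts ran from 0 to 1 in *Nrde2*-KO, *Nrde2*Δ*200* and the second *Nrde2*-KO, 4 to 5 in *Mtrex*-KO, 2 to 2 in the libraries labelled *Nrde2*-KO with CHX, 2 to 3 in footprints and 2 to 4 for the *Mtrex*-KO effect minus the *Nrde2*-KO effect. For CHX they ran from 1 to 4 in the WT and 1 to 3 in the libraries labelled *Nrde2*-KO of the second experiment, 0 to 2 in the *Ccdc174* WT and 2 to 3 in *Ccdc174-dTAG*. They stayed at 0 in the other comparisons. Without the *Ccdc174* WT libraries in turn, the call of *Exosc1* for CHX ended each time (adjusted p of 0.0133 to 0.0756). A pair of libraries per group leaves wide intervals, such as −0.69 to 0.11 for *Exosc4* RNA in *Nrde2*-KO. A subunit without a call is therefore not shown to be unchanged.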
